A study of Mus musculus with 6 samples.

Results

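The 8 genes described here encode the transforming growth factor beta (TGF-beta) receptors Tgfbr1 and Tgfbr2, the signalling Smads Smad2, Smad3 and Smad4, and the inhibitors Smad7, Ski and Skil. They were chosen by name. Each was measured by 1 probe set whose only gene symbol was that gene, and all 8 of the 8 were found among 19929 named genes. RNA came from CD8 T cells sorted from mouse pancreas with an antibody to CD8 and a peptide-loaded class I tetramer that binds the AI4 T cell receptor. One group of 3 arrays came from AI4 mice, which carry this transgenic receptor for a beta cell antigen and developed type 1 diabetes. The other 3 arrays came from Rip-B7xAI4 mice, which carry the same receptor and also B7x (a ligand that inhibits T cells), driven in beta cells by the rat insulin promoter. Those mice were resistant to diabetes. Both groups were on the C57BL/6.H2g7/g7 background, pancreata were pooled before sorting, and no source used here gives the age or number of mice behind an array. The presence of B7x on beta cells and the absence of disease go together in this design and cannot be told apart.

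TGF-beta is a cytokine that restrains activation, proliferation and cytotoxicity of CD8 T cells and favours their residence in tissues. The ligand binds Tgfbr2, which phosphorylates Tgfbr1, and Tgfbr1 in turn phosphorylates Smad2 and Smad3. These join Smad4, enter the nucleus and act on genes that include their own inhibitors: Smad7 blocks the receptor, and Ski and Skil (SnoN) hold Smad complexes in a repressed state. Much of this pathway is regulated by phosphorylation and protein turnover, which RNA levels do not show.

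Smad3 and Smad4 bind the box CAGAC, and this box was searched on both strands in the 250 bases before the start of each gene in RefSeq (build GRCm38.p6). It stood in 42.2% of 32851 such windows, and the longer palindrome GTCTAGAC in 0.167%. For the 8 genes, 5 windows of 4 genes were read. The windows of Smad2, Smad4, Smad7 and Skil were not read, so nothing is said here of their boxes or palindromes. Tgfbr2 held 1 box and the windows of Smad3 and Ski held 0, while Tgfbr1 held 0 before one of its starts and 1 before the other. The palindrome was in 0 of the 5 windows. The sequences of Tgfbr2, the receptor that binds the ligand, and of Ski, the gene whose groups did not overlap, are shown 5′ to 3′ on the strand of the gene, with the box in capitals.
Tgfbr2, chr9:116175364-116175613, minus strand: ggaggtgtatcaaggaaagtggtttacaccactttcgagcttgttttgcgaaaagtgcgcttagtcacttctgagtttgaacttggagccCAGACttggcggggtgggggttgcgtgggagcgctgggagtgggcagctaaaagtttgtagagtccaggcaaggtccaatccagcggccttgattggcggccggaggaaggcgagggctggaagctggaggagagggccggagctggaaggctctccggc
Ski, chr4:155222536-155222785, minus strand: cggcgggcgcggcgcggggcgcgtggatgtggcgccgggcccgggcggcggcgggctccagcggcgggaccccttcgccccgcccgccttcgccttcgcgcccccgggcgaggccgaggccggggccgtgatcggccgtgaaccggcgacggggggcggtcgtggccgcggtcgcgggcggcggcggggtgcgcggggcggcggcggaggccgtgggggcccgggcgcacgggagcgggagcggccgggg

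Values are log2 expression as deposited, and differences are Rip-B7xAI4 minus AI4 on that scale. Array medians over 28325 probe sets lay between 5.94 and 6.10. The interquartile ranges of the arrays ran from 1.71 in AI4 replicate 1 to 2.13 in Rip-B7xAI4 replicate 1. In limma's fit over 13950 genes, 1 gene (0.00717% of those tested) passed an adjusted p of 0.05, and 0 of the 8 pathway genes did. At an unadjusted p of 0.05 limma counted 0 of the 8, against 8.73% of all genes tested, of which 5.56% were higher and 3.17% were lower in Rip-B7xAI4. At that limit 776 genes were higher and 442 lower as deposited, and these numbers became 620 and 527 after quantile normalization, and 846 and 282 after median centring. Markers of CD8 T cells averaged between 10.01 and 10.68 on the AI4 arrays and between 10.08 and 10.72 on the Rip-B7xAI4 arrays, with Cd3e at 9.11 or above and Cd8a at 9.21 or above on every array. Cd4 stood between 5.47 and 6.24 and Foxp3, which marks regulatory T cells, between 6.75 and 6.98. Il2ra, a marker of regulatory and of activated T cells, stood at 6.32, 5.28 and 5.27 in AI4 and at 6.97, 6.25 and 6.29 in Rip-B7xAI4, a difference of 0.88 ± 0.36 (SE) (adjusted p = 0.566 by limma), and is named after its values were seen. Markers of myeloid cells averaged 6.13 to 6.69 over 17 genes in AI4, and in Rip-B7xAI4 they averaged 8.74, 6.25 and 8.50 in replicates 1, 2 and 3. In Rip-B7xAI4 replicate 1 the macrophage lysozyme gene Lyz2 stood at 11.40. Background was not measured here, and a low value is therefore not called absent. Fewer cells expressing a gene and less RNA of it per cell cannot be told apart in these bulk samples.

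The receptor genes showed no difference between the groups that exceeded their spread. Tgfbr2, which binds the ligand and starts the signal, stood at 7.36, 7.99 and 7.88 in AI4 and at 7.28, 7.97 and 7.26 in Rip-B7xAI4. Replicates 1 and 3 of Rip-B7xAI4 were the lowest of the 6 arrays, while replicate 2 lay beside the highest AI4 arrays, so the groups overlapped. The means were 7.75 ± 0.34 (SD, n = 3) and 7.50 ± 0.40 (SD, n = 3), and the difference was -0.24 ± 0.28 (SE), with a 95% interval from -0.90 to 0.42 (adjusted p = 0.704 by limma). Tgfbr1, the kinase that phosphorylates the Smads, stood at 4.79, 5.46 and 6.40 in AI4 and at 5.24, 5.21 and 6.11 in Rip-B7xAI4. Here replicate 3 was the highest of each group, and the arrays of a group lay further apart than the group means did. The difference was -0.03 ± 0.45 (SE), with an interval from -1.10 to 1.04 (adjusted p = 0.980 by limma). With a mean of 5.53 over all arrays, Tgfbr1 lay just above the limit of 5.47 below which genes were not tested, so its probe set is among the dimmest that entered the fit.

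Among the signalling Smads, Smad2 varied most. It stood at 5.79, 7.63 and 8.15 in AI4 and at 8.80, 8.45 and 6.90 in Rip-B7xAI4. AI4 replicate 1 was far below all others, Rip-B7xAI4 replicate 3 was the next lowest, and the groups overlapped. The means were 7.19 ± 1.24 (SD, n = 3) and 8.05 ± 1.01 (SD, n = 3). The difference of 0.86 ± 0.73 (SE) was the largest of the 8 genes, but its interval ran from -0.87 to 2.59 (adjusted p = 0.642 by limma). The spread of Smad2 within the groups (residual SD 1.13) was larger than that of most genes tested, at the 97.8th percentile. The difference shrank to 0.16 when AI4 replicate 1 was left out and grew to 1.43 when Rip-B7xAI4 replicate 3 was.

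Smad3, the close relative of Smad2 that binds DNA directly, stood at 7.20, 7.53 and 8.05 in AI4 and at 7.44, 7.47 and 7.36 in Rip-B7xAI4. All 3 Rip-B7xAI4 arrays lay inside the AI4 range. The means were 7.59 ± 0.43 (SD, n = 3) and 7.42 ± 0.06 (SD, n = 3), and the difference was -0.17 ± 0.24 (SE), with an interval from -0.75 to 0.40 (adjusted p = 0.748 by limma). Smad4, the partner that both Smads share, stood at 8.26, 8.20 and 8.84 in AI4 and at 7.98, 8.32 and 8.07 in Rip-B7xAI4. AI4 replicate 3 was the highest, and Rip-B7xAI4 replicate 2 lay above the other AI4 arrays. The means of Smad4 were 8.43 ± 0.36 (SD, n = 3) and 8.12 ± 0.17 (SD, n = 3), and the difference was -0.31 ± 0.23 (SE), with an interval from -0.85 to 0.24 (adjusted p = 0.618 by limma). Quantile normalization separated the groups of Smad4, with the lowest AI4 array at 8.32 and the highest Rip-B7xAI4 array at 8.25.

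Of the inhibitors, Ski was the one gene of the 8 whose groups did not overlap. This corepressor stood at 7.32, 7.06 and 7.07 in AI4 and at 6.99, 6.88 and 6.81 in Rip-B7xAI4. All Rip-B7xAI4 arrays lay below all AI4 arrays, by a gap of 0.07 between the nearest arrays. Such a separation was seen for 17.9% of all genes tested, 11.9% lower and 5.99% higher in Rip-B7xAI4, so 1 of 8 is near the background. The means of Ski were 7.15 ± 0.15 (SD, n = 3) and 6.89 ± 0.09 (SD, n = 3), and the difference was -0.25 ± 0.16 (SE), with an interval from -0.65 to 0.14 (adjusted p = 0.597 by limma). Median centring made the groups of Ski overlap, with the lowest AI4 array at 7.02 and the highest Rip-B7xAI4 array at 7.10. Its spread within the groups (residual SD 0.12) was at the 6.85th percentile of the genes tested, opposite to that of Smad2.

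Smad7, the inhibitory Smad that the pathway induces, stood at 6.95, 6.48 and 7.34 in AI4 and at 6.48, 6.91 and 6.47 in Rip-B7xAI4. Replicates 1 and 3 of Rip-B7xAI4 and AI4 replicate 2 were almost level at the low end, and the groups overlapped. The means were 6.92 ± 0.43 (SD, n = 3) and 6.62 ± 0.25 (SD, n = 3), and the difference was -0.30 ± 0.26 (SE), with an interval from -0.93 to 0.33 (adjusted p = 0.649 by limma). Skil, the second corepressor and likewise a target of the pathway, stood at 6.44, 7.09 and 7.21 in AI4 and at 7.27, 6.55 and 7.10 in Rip-B7xAI4. One array of each group was low and the rest were close together, so the group means nearly met at 6.92 ± 0.41 (SD, n = 3) and 6.97 ± 0.38 (SD, n = 3). The difference of Skil was 0.06 ± 0.29 (SE), with an interval from -0.63 to 0.75 (adjusted p = 0.937 by limma).

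**Figure D1:**
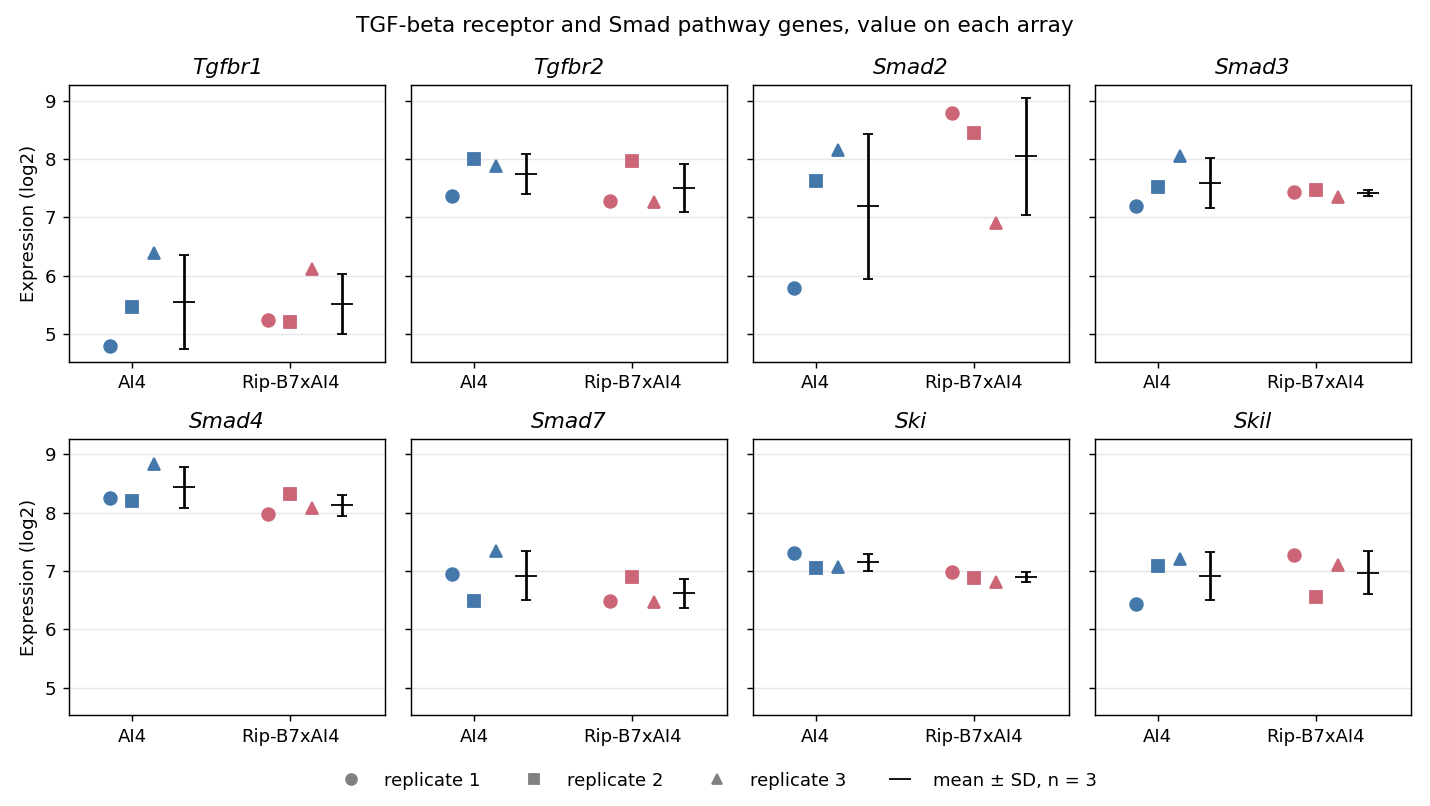
Log2 expression (vertical axis) of the 8 genes on each array, with AI4 in blue and Rip-B7xAI4 in red, a marker shape for each replicate number and bars for mean ± SD (n = 3). Smad2 spans 5.79 to 8.80, while for Ski all Rip-B7xAI4 values (6.81 to 6.99) lie just below all AI4 values (7.06 to 7.32); heights are not comparable between genes.

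For none of the 8 genes did the interval of the difference leave out 0. The difference was larger than its SE for Ski, Smad4, Smad2 and Smad7 and smaller for the other four. The interval lay within 1 on the log2 scale on either side of 0 for 6 genes, namely Tgfbr2, Smad3, Smad4, Smad7, Ski and Skil. For the other 2, Tgfbr1 and Smad2, it reached beyond 1, so for them these arrays leave a difference of that size undecided. The difference was negative for 6 and positive for 2 of the 8, with a median of -0.21. Over all genes tested it was negative for 61.0%, with a median of -0.10, so the direction of the 8 is near that of the arrays as a whole. After quantile normalization and after median centring 5 of the 8 were negative, and Tgfbr1 was the gene that turned positive under both.

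**Figure D2:**
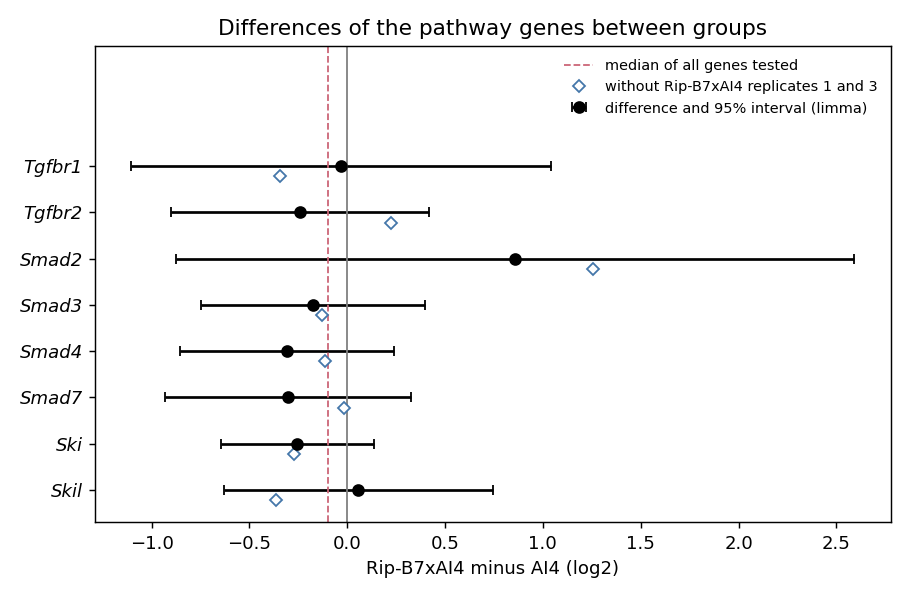
Difference Rip-B7xAI4 minus AI4 (log2, horizontal axis) for each of the 8 genes, with limma's 95% interval as a bar, the same difference without Rip-B7xAI4 replicates 1 and 3 as an open diamond, and the median of all genes tested (-0.10) as a dashed line. Every interval crosses 0, the one of Smad2 (-0.87 to 2.59) is the widest, and the diamonds of Tgfbr2 and Skil lie across 0 from their points.

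Within Rip-B7xAI4, replicate 2 was the highest array for Tgfbr2, Smad3, Smad4 and Smad7 and the lowest for Tgfbr1 and Skil. How often replicate 2 was highest or lowest in its group over all genes tested was not counted, so this is not read as a trait of the 8 genes. For Smad2 and Ski replicate 2 lay between replicates 1 and 3. The genes set beside the myeloid markers below were picked after their values were seen. In replicates 1 and 3, where the myeloid markers averaged 8.74 and 8.50, Tgfbr2, Smad4 and Smad7 were lower than in replicate 2, where those markers averaged 6.25. Skil was the reverse, at 7.27 and 7.10 in replicates 1 and 3 against 6.55 in replicate 2. With replicate 2 as the only Rip-B7xAI4 array, the difference from AI4 was 0.23 ± 0.35 (SE) for Tgfbr2, -0.02 ± 0.41 for Smad7 and -0.11 ± 0.36 for Smad4. It was then -0.36 ± 0.40 for Skil, -0.27 ± 0.27 for Ski and 1.26 ± 0.98 for Smad2, with an adjusted p of 0.953 for each of these 3 by limma, which assumes that the lone array varies like the AI4 arrays. All 17 myeloid markers had a positive difference, and their part in the values of Tgfbr2, Smad4, Smad7 and Skil was not tested. Among the AI4 arrays, AI4 replicate 1 held the lowest value of all 6 arrays for 4 of the 8 genes (Tgfbr1, Smad2, Smad3 and Skil), while it was the lowest array for 17.8% of all genes tested. AI4 replicate 1 was also the highest array for 33.4% of all genes tested, and Rip-B7xAI4 replicate 1 was the lowest for 30.8%. AI4 replicate 3 held the highest value for another 4 (Tgfbr1, Smad3, Smad4 and Smad7), while it was the highest array for 13.2% of genes. The range within AI4 was wider than within Rip-B7xAI4 for 7 of the 8 genes, Tgfbr2 being the exception, against 54.3% of all genes tested.

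**Figure D3:**
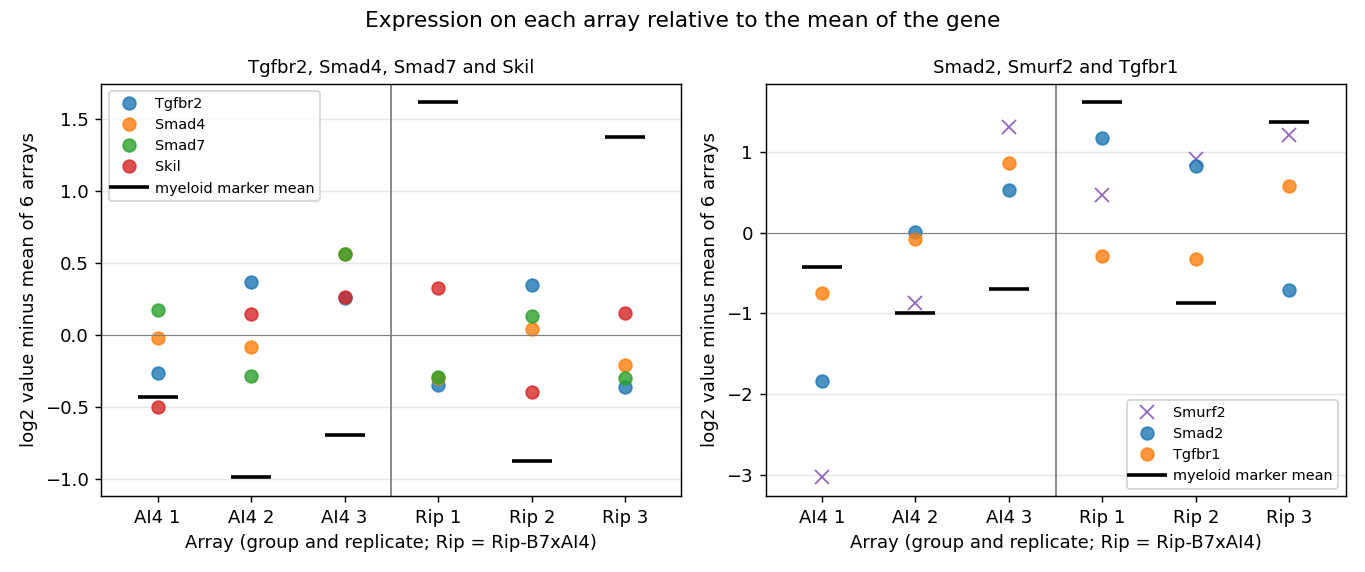
Expression on each array as log2 value minus the mean of that gene over the 6 arrays (vertical axis), for Tgfbr2, Smad4, Smad7 and Skil on the left and Smad2, Tgfbr1 and the ubiquitin ligase gene Smurf2 on the right, with the mean of 17 myeloid markers as a black dash. Tgfbr2, Smad4 and Smad7 are low and Skil is high on Rip-B7xAI4 replicates 1 and 3, where the dash is high, and AI4 replicate 1 stands lowest for the genes on the right. The genes on the left were picked after their values were seen.

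Ligand and activation genes also gave no call. Of 19 genes on this list 16 were tested and 0 passed the adjusted limit, with a median difference of -0.15. At an unadjusted p of 0.05 by limma 1 was higher and 0 lower, against 5.56% and 3.17% of all genes tested. Itgav, the integrin subunit that helps release TGF-beta from its latent complex, stood at 6.86, 6.91 and 7.11 in AI4 and at 7.88, 7.59 and 7.43 in Rip-B7xAI4, without overlap. Its difference was 0.68 ± 0.19 (SE) (adjusted p = 0.462 by limma), and 5.99% of all genes tested had such a separation upward. Furin, the protease that cleaves the TGF-beta precursor, differed by 0.72 ± 0.31 (SE), and Inhbb, a subunit of activin, by -0.44 ± 0.21. Thbs1, the thrombospondin that can activate latent TGF-beta, differed by 1.13 ± 0.64 and stood at 8.96 in Rip-B7xAI4 replicate 1 but at 6.31 and 6.87 in the other two arrays. Tgfb1, the main ligand of the immune system, is named here after its values were seen. It stood at 6.64, 7.03 and 6.86 in AI4 and at 7.86, 6.78 and 7.11 in Rip-B7xAI4, and differed by 0.41 ± 0.30 (SE).

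The other receptors of the family gave no call. Of 12 genes 8 were tested and 0 passed. The difference was negative for 6 of the 8, against 61.0% of all genes tested, with a median of -0.22. At an unadjusted p of 0.05 by limma 0 were higher and 1 was lower, against 5.56% and 3.17% of all genes tested. That gene was Eng (endoglin), a co-receptor of endothelial cells and macrophages, at 6.61, 6.58 and 6.43 in AI4 and at 6.25, 5.96 and 6.08 in Rip-B7xAI4. It differed by -0.44 ± 0.17 (SE) (adjusted p = 0.553 by limma). The activin receptor genes Acvr2a and Acvr2b differed by -0.39 ± 0.20 and -0.30 ± 0.18, and Bambi, a decoy receptor, by -0.33 ± 0.29.

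Regulators of the Smads likewise gave no call. Of 38 genes listed 36 were tested, 0 passed, and 4 were higher and 1 lower at an unadjusted p of 0.05, against 5.56% and 3.17% of all genes tested, with a median of -0.01. Usp4, a ubiquitin protease that acts on Tgfbr1, stood at 6.95, 7.31 and 7.89 in AI4 and at 8.55, 8.25 and 8.11 in Rip-B7xAI4, a difference of 0.92 ± 0.28 (SE) (adjusted p = 0.478 by limma). Ldlrad4, which binds Smad2 and Smad3 and limits their activation, and is itself induced by TGF-beta, stood at 6.53, 7.51 and 8.04 in AI4 and at 6.24, 5.96 and 6.21 in Rip-B7xAI4. All Rip-B7xAI4 arrays lay below all AI4 arrays, as for 11.9% of all genes tested, and the difference was -1.22 ± 0.38 (SE) (adjusted p = 0.493 by limma). The ubiquitin ligase genes Cblb, a brake on T cell receptor signals, and Rlim differed by 1.15 ± 0.41 and 1.17 ± 0.42. The remaining higher gene, Fkbp1a, which keeps Tgfbr1 inactive, differed by 0.55 ± 0.22 and is named after its values were seen. Smurf2, the ligase that Smad7 brings to the receptor, was likewise picked after its values were seen. It stood at 4.43, 6.60 and 8.77 in AI4 and at 7.93, 8.38 and 8.67 in Rip-B7xAI4, and differed by 1.73 ± 0.99 (SE). Like Smad2 it was lowest on AI4 replicate 1, and its AI4 arrays spanned 4.34 on the log2 scale.

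Kinases and GTPases through which TGF-beta receptors signal outside the Smads gave 0 calls among 15 tested genes, with a median of 0.15. At an unadjusted p of 0.05 by limma 1 was higher and 1 lower, against 5.56% and 3.17% of all genes tested. Rhoa, a GTPase of the actin cytoskeleton, differed by 0.54 ± 0.22 (SE), and Pard6a, a polarity protein that Tgfbr2 phosphorylates, by -0.63 ± 0.25. The kinase genes Mapk9 (JNK2) and Map2k4 differed by 0.90 ± 0.41 and 0.66 ± 0.34.

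Genes that TGF-beta is known to raise gave no call, and their median difference was -0.15. Of 32 genes 27 were tested, 0 passed, and 4 were higher and 2 lower at an unadjusted p of 0.05, against 5.56% and 3.17% of all genes tested. Ski, Skil and Smad7 are on this list, and without them 9 of the 24 tested had a positive and 15 a negative difference, with a median of -0.14. The higher genes with the smallest p were Xcl1, Bhlhe40 and Cxcr6, with differences of 3.06 ± 0.45 (SE), 2.80 ± 0.44 and 2.21 ± 0.49, genes that T cell activation also induces. Ldlrad4, described above, was lower. Rgs16, a regulator of G protein signals, and Tsc22d1 complete these 6, at 1.58 ± 0.61 and -0.97 ± 0.35, and are named after their values were seen. Itgae, the CD103 integrin chain that TGF-beta induces in CD8 T cells, and Pmepa1, a feedback inhibitor, are named after their values were seen. Itgae stood at 6.83, 7.58 and 8.51 in AI4 and at 7.08, 6.76 and 6.76 in Rip-B7xAI4, and differed by -0.77 ± 0.41 (SE) (adjusted p = 0.582 by limma). Its Rip-B7xAI4 arrays lay near the lowest AI4 array. Pmepa1 differed by -0.32 ± 0.25 (SE).

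Genes that TGF-beta is known to restrain in CD8 T cells were mostly higher in Rip-B7xAI4. Of 19 genes 17 were tested, and 14 of these had a positive difference. By limma 0 passed the adjusted limit, and 11 were higher and 1 lower at an unadjusted p of 0.05, against the 5.56% and 3.17% of all genes given above. The median was 1.14, and the Rip-B7xAI4 values were all above the AI4 values for 10 of the 17, against 5.99% of all genes. This list consists largely of effector genes that were known to be high in these samples when it was drawn up, so its count is not independent evidence. Gzma and Gzmb (granzymes), Ifng (interferon gamma) and Fasl (Fas ligand) differed by 2.91 ± 0.35 (SE), 4.08 ± 0.77, 3.47 ± 0.51 and 1.97 ± 0.33. S1pr1, the receptor for tissue exit that is also repressed by TGF-beta, was the lower gene, with a difference of -1.37 ± 0.52 (SE). It is named after its values were seen. Without Rip-B7xAI4 replicates 1 and 3, which are high in myeloid markers, the median of the list was 1.44, against -0.09 over all genes tested. This rests on a lone Rip-B7xAI4 array and on the same list, so it is not independent evidence either.

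**Figure D4:**
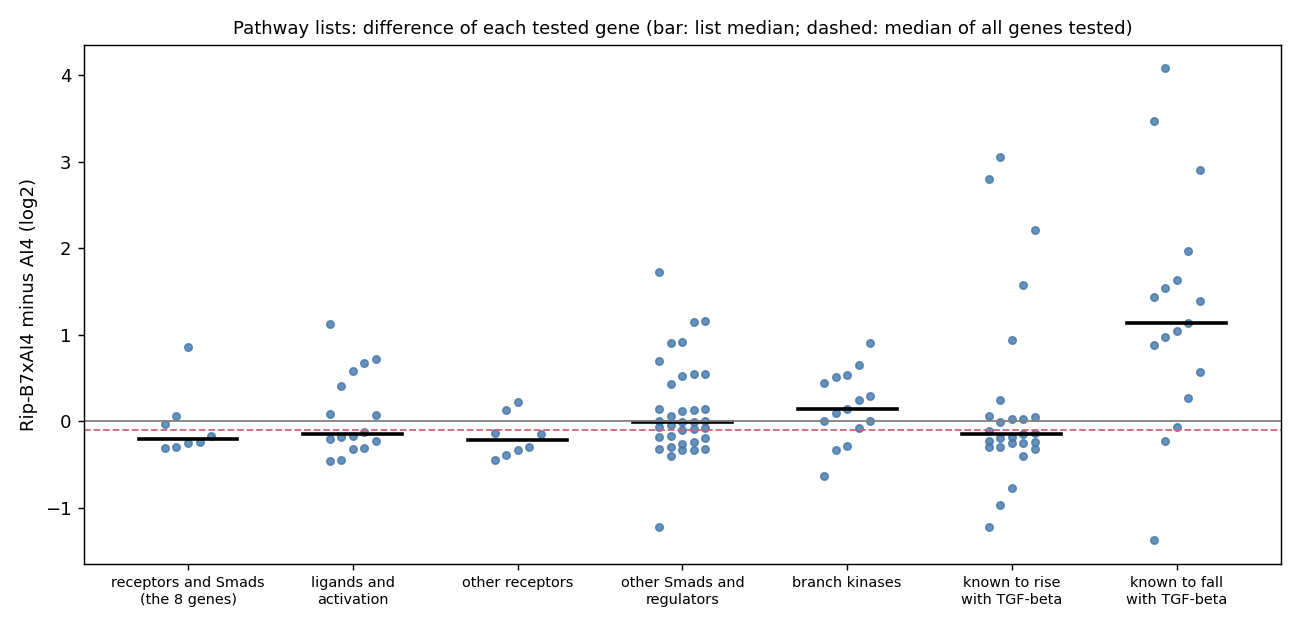
Difference Rip-B7xAI4 minus AI4 (log2, vertical axis) of each tested gene in the 8 pathway genes and 6 lists of related genes, with a bar for the list median and a dashed line for the median of all genes tested (-0.10). The medians of the 8 genes (-0.21) and of the genes known to rise with TGF-beta (-0.15) lie near the dashed line. Single genes of the latter list span -1.22 to 3.06. The median of the genes known to fall with TGF-beta (1.14) lies above the line, and its genes span -1.37 to 4.08. That list was drawn up with earlier results of these data known.

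The genes whose profile over the 6 arrays was most like that of Ski, by the root mean square difference after each gene mean was taken off, were Ccdc183, Srebf1 and Mospd4, with differences of 0.02, 0.03 and 0.04 on the log2 scale. Srebf1, a regulator of lipid synthesis, stood at 7.10, 6.81 and 6.88 in AI4 and at 6.69, 6.64 and 6.59 in Rip-B7xAI4. For Smad4 they were Zmym1, Myo18b and Bach2, at 0.05, 0.07 and 0.08, and Bach2, a repressor that keeps T cells in a naive or memory state, differed by -0.38 between the groups. For Smad2, added after its spread was seen, they were Cab39, Med10 and Mtf2, at 0.14, 0.20 and 0.23. Cab39 stood at 5.82, 7.73 and 8.16 in AI4 and at 8.82, 8.42 and 7.29 in Rip-B7xAI4; a gene chosen for its likeness shares the low value on AI4 replicate 1 through that choice. The nearest genes out of 13950 are close by construction over so few arrays.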

How the data were processed

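Per the submitters' processing notes the arrays were processed with Affymetrix Expression Console; the version and algorithm are not given there. The deposited table holds the authors' normalized log2 values, 1 for each probe set and array, and that they are log2 was read from their range. These values were used without further scaling. Of 28325 probe sets, 21760 had 1 gene symbol in the platform annotation, 1621 several and 4944 none; 21669 matched RefSeq (GRCm38.p6) by gene ID. The probe set with the highest mean was kept for each of 19929 genes, and the dimmest 30% by mean were left out, so that 13950 genes were tested. These were fitted with limma 3.58.1 in R 4.3.3 (lmFit and eBayes, 1 group term, two-sided), with Benjamini-Hochberg adjustment over all of them and a limit of 0.05. The replicates are labelled biological; their number, 3 arrays a group, limits the precision. The fit was tested on simulated data for this comparison (20 sets of 13950 genes, 200 of them changed). There the genes varied independently, with the spread limma estimated for each. It recovered 20.9% of genes changed by 1, 86.8% by 2, 96.9% by 3 and 99.4% by 4 on the log2 scale. The arrays differ from that setting, as the largest difference of all genes tested, 4.08, did not pass the adjusted limit. These shares therefore cannot be taken as what the fit finds on these arrays.

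The 8 genes and all lists were chosen with earlier results of these data known. The text names the 8 genes, up to 4 genes of each list by smallest p, and the 3 genes nearest in profile for the 2 members with the smallest p; other genes are said to be named after their values were seen. Beta cell, acinar, B cell, endothelial and fibroblast markers were also read: in AI4 against Rip-B7xAI4 their array means lay at 5.52 to 5.61 against 5.16 to 5.63, 5.90 to 5.94 against 5.79 to 5.95, 5.77 to 6.61 against 5.81 to 7.10, 5.58 to 5.85 against 5.19 to 5.61, and 5.89 to 6.22 against 5.53 to 5.88. CD4 and regulatory T cell markers lay at 5.91 to 6.37 against 6.39 to 6.47. Within that list Il2ra differed by 0.88 and Cd4 by 0.24, while Foxp3 went the other way, by -0.13. The 15 alternatives are described at the end.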

Additional observations from a re-analysis of the deposited data

How the results depend on the processing

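The 15 alternatives were a replicate block, 6 fits that each leave out 1 array, a fit that leaves out Rip-B7xAI4 replicates 1 and 3 together, array weights, eBayes with trend and robust, median centring, quantile normalization, averaging a gene's probe sets, and a limit on dim genes that was dropped or raised to 50%. Each of the 8 genes had a single probe set, so probe sets on their own gave no further value, and Tgfbr1 was too dim for the 50% filter. Of the 119 values of the 8 genes so obtained, 0 passed the adjusted limit, and Smad2, Smad4 and Ski kept their sign in all of theirs. The sign turned in 13. Without single arrays Tgfbr1 lay between -0.41 and 0.39, Smad3 between -0.37 and 0.053 and Skil between -0.18 and 0.27. Tgfbr1 was also 0.071 after quantile normalization and 0.036 after median centring. Without Rip-B7xAI4 replicates 1 and 3 together Tgfbr2 was 0.23 and Skil -0.36, and with array weights Smad7 was 0.046 and Skil -0.27. The count of genes past the limit, 1 as reported, was 0 with the replicate block, 0 without Rip-B7xAI4 replicates 1 and 3 together, 38 with array weights and 0 to 22 without single arrays. Leaving out Rip-B7xAI4 replicate 2 gave 22, leaving out AI4 replicate 1 gave 2, and each other array gave 0; the cause was not tested. With array weights 2 genes of the list known to rise with TGF-beta and 3 of the list known to fall passed. Without single arrays the latter count was 0 to 1, and the other lists stayed at 0. Same-numbered arrays of the 2 groups did not deviate together, with correlations of -0.08, 0.06 and -0.22 over genes for replicates 1, 2 and 3, so the numbers are not taken as pairs. The replicate block lowered the genes with an unadjusted p under 0.05 from 1218 to 993. With 3 arrays a group, differences of 1 on the log2 scale were mostly missed in the simulated data. On the arrays themselves even the largest difference of all genes tested, 4.08, was not called.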
